A study of Mus musculus with 3 samples.

Results

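The cells described here are lung group 2 innate lymphoid cells (ILC2) that held at least 1 UMI of Il5 or Il13. They were chosen from the IL-18R- ST2+ library by 3 conditions on their own counts: at least 2 UMIs of Il1rl1 and Gata3 together, no UMI of Cd3e or Cd3d, and at least 1 UMI of Il5 and Il13 together. A UMI is a molecular barcode that counts 1 captured transcript. Of 1622 cells kept in that library, 1493 met the first 2 conditions, and 480 of these met the last, which is 32.15% (95% exact binomial interval 29.78 to 34.59). The 480 are called members, and they are compared with the 1013 cells of the same gate that held neither transcript. All 3 libraries together held 5164 kept cells.

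ILC2 are tissue-resident lymphocytes that carry no antigen receptor of T or B cells and answer to alarm signals from damaged epithelium. The main alarm in lung is IL-33, which binds ST2, the product of Il1rl1, and acts through MyD88, NF-kB and AP-1. GATA3 is the transcription factor that establishes the ILC2 programme and acts at the type 2 cytokine genes. IL-5 supports eosinophils, and IL-13 drives mucus production and smooth muscle contraction in the airway. ILC2 also make GM-CSF (from Csf2), a growth factor of myeloid cells, and amphiregulin (from Areg), an EGF receptor ligand linked to epithelial repair.

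The tissue was lung of GFI1B-GFP reporter mice, perfused, digested with collagenase type III, DNase I and Dispase, and enriched on a Percoll gradient. The sort took live CD45+ cells with CD90.2 and IL-7R but without lineage markers, and single-cell RNA was counted at the transcripts' 3' ends with 10x Chromium chemistry. The 3 groups are 1 library each: an IL-18R+ pool that mixes IL-18R+ CD103+ GFP- with IL-18R+ CD103- GFP+ cells, a sort labelled IL-18R- CD103- GFP-, and the ST2+ sort described here, also IL-18R-. Of treatment, strain, age and animal numbers the sources used here give nothing, and GFI1B-GFP is the one allele the labels name for all 3.

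With 1 library per group, and with members and comparators taken from the same library, no test was possible. Cells of a library are not replicates, so cells were given no p value and no standard error. Levels are UMIs of a gene summed over the cells of a class, divided by all UMIs of that class and set on the CPM scale (UPM). Intervals are 95% exact Poisson, binomial or conditional limits. They cover counting error only, hold no spread between cells or animals, and are not adjusted for the number of genes.

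Markers of the sort were checked first. Over all kept cells of the IL-18R- ST2+ library, Il1rl1 stood at 867.8 UPM (847.5 to 888.5) and Gata3 at 848.1 UPM (828 to 868.6). Il18r1, the receptor the sort left out, stood at 16.07 UPM (13.4 to 19.1) in the same cells. Over gated cells the 3 levels were 910.5, 893 and 12.8 UPM, but the gate itself required Il1rl1 or Gata3 UMIs. Il18r1 was at 591 UPM over all kept cells of the sort labelled IL-18R- CD103- GFP-, near the 663 UPM of the IL-18R+ pool. This goes against the label if the transcript follows the surface protein that was sorted, and that protein was not measured here. That library and the pool hold 49 and 146 cells of the same Il1rl1, Gata3 and Cd3 gate and enter no comparison below. In the order in which the groups were introduced, kept cells were 1659, 1883 and 1622, from 1688, 1903 and 1760 barcodes. The first 2 libraries shared 1 barcode sequence, and neither shared any with the IL-18R- ST2+ library. Scrublet called 11 of its cells doublets (0.678%), of which 5 were members and 5 comparators, and none were removed.

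Members held 1310 UMIs of Il5 and 1384 UMIs of Il13. Il5 was seen in 312 members (65%) and Il13 in 269 (56.04%). These transcripts were spread unevenly over cells: of the members with Il5, 151 held a single UMI and 39 held 10 or more, with a highest count of 85. For Il13, 101 members held a single UMI, 41 held 10 or more, and the highest count was 60. The 10 members with the most UMIs of both genes together held 18.15% of all their Il5 and Il13 UMIs, and the top 48 held 45.32%. These counts chose the cells and are given as a description.

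The members divide into 211 cells with Il5 only (43.96%), 168 with Il13 only (35%) and 101 with both (21.04%). Cells rich in one transcript often held none of the other. Of the 39 members with 10 or more Il5 UMIs, 23 had no Il13, and of the 41 with 10 or more Il13 UMIs, 21 had no Il5. At the high end of both axes, 3 cells held 10 or more UMIs of each.

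**Figure D1:**
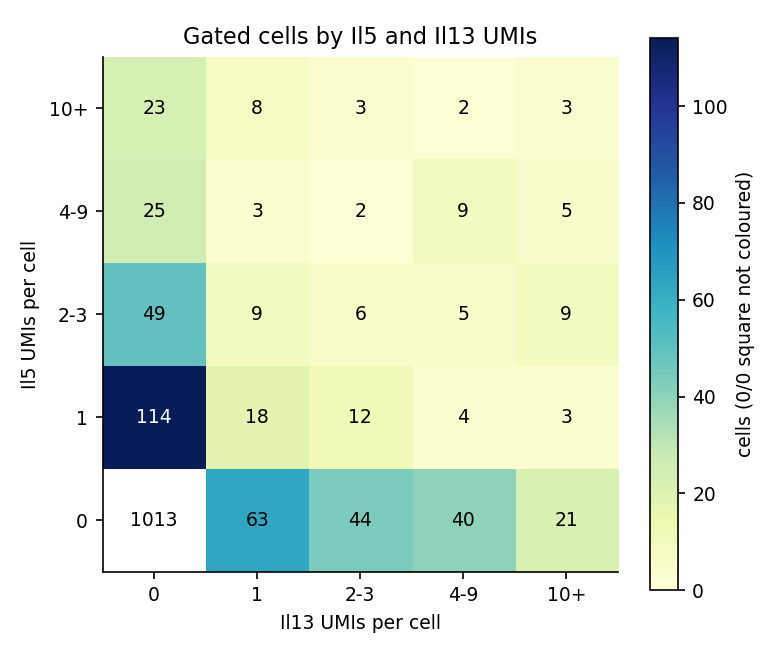
Number of gated cells of the IL-18R- ST2+ library by Il5 UMIs (vertical axis) and Il13 UMIs (horizontal axis) per cell, in bins of 0, 1, 2 to 3, 4 to 9 and 10 or more; the square without either, 1013 cells, is left uncoloured. The largest coloured squares are the cells with 1 UMI of one transcript and none of the other, 114 for Il5 and 63 for Il13.

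Across all gated cells, each cytokine was nonetheless more abundant in the cells that held the other. Il13 stood at 359 UPM (332 to 387) in the 312 cells with an Il5 UMI and at 132 UPM (123 to 142) in the 1181 without one, a ratio of 2.72 (2.44 to 3.03). Il5 stood at 329 UPM (301 to 359) in the 269 cells with an Il13 UMI and at 139 UPM (129 to 149) in the 1224 without one, a ratio of 2.37 (2.12 to 2.66). When each cell was first thinned to 2500 UMIs, which removes differences in depth, the ratios were 2.63 (2.22 to 3.102) and 2.13 (1.75 to 2.57). Within tertiles of the gated cells by UMIs per cell, from lowest to highest, Il13 in Il5-positive over Il5-negative cells was 4.69, 2.68 and 2.14. The reverse ratio, of Il5 in Il13-positive over Il13-negative cells, was 2.21, 3.08 and 1.76 in the same tertiles.

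Depth moved with membership. Members had a median of 5239 UMIs per cell (quartiles 4254 and 6246) and 1687 genes, against 4407 UMIs and 1525 genes in comparators. The share of gated cells that were members was 19.48% in the lowest tertile by depth, 27.97% in the middle and 49% in the highest. Mitochondrial UMIs were alike, with medians of 3.73% and 3.89%, as were ribosomal protein UMIs at 30.88% and 32.2%. Of the 1461 gated cells with at least 2500 UMIs, 364 kept an Il5 or Il13 UMI after thinning to that depth (24.91%, 22.71 to 27.22). With the gate redrawn on the thinned counts, the share was 25.68%. A cell with no UMI is therefore not shown to lack the transcript, and the comparators may hold cells that express it.

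The values beside the thresholds of the rule were these. Among cells without Cd3, 8 of 35 with 1 UMI of Il1rl1 and Gata3, just outside the gate, held Il5 or Il13. Just inside it, at 2 UMIs, 8 of 67 did (11.94%, 5.30 to 22.18), and at 6 or more UMIs 379 of 1055 did (35.92%, 33.02 to 38.90). Median depth in these 3 groups was 3538, 3839 and 4895 UMIs. Of the members, 177 held exactly 1 UMI of Il5 and Il13, 123 held 2 or 3, and 180 held 4 or more.

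Free RNA in droplets can give a UMI to a cell that does not express the gene. Cells with a Cd3 UMI and under 2 UMIs of Il1rl1 and Gata3 should lack both cytokines. In the same library 0 of 19 such cells held Il5 or Il13, which allows a share of up to 15.79%, at a median depth of 5256 UMIs. Outside the gate as a whole, 24 of 129 cells held one (18.6%, 12.3 to 26.41), at a median of 4036 UMIs. Of these 24, 13 had 2 or more UMIs of Il1rl1 and Gata3 and stood outside only through a Cd3 UMI. Cells of this library with no Il1rl1 or Gata3 UMI held one in 3 of 43 (6.98%, 1.46 to 19.06). Cells with any Cd3 UMI held one in 13 of 64 here (20.31%, 11.28 to 32.23). In the other 2 libraries, the pool first, that class held one in 0.243% (3 of 1234) and 0.121% (2 of 1658). Median depths there were 4859 and 4768 UMIs. Over all kept cells Il5 stood at 1.22 and 0.412 UPM in those libraries, against 167.4 UPM here. Il13 stood at 12 and 0.824 UPM, against 178 UPM. Their low shares therefore cannot show how much free RNA this library held.

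Members and comparators were compared over 5110 genes that reached 20 UPM in either class, leaving out the 6 genes of the rule. A gene was called by size when its levels differed by at least 1.5-fold after sums were raised to a floor of 3 UMIs. By this rule 84 genes were higher in members, which is 1.64% of those measured, and 73 were lower, which is 1.43%. At 2-fold the numbers were 18 (0.352%) and 3 (0.0587%). At the 1.5-fold shares, a short list drawn from all genes would often hold no called gene. A list below without a call is therefore not set apart from genes at large. At 50 UPM or more, 42 of the higher genes remained against 4 of the lower, and 7 of the 42 had 50% or more of their UMIs in 3 cells (Gsn, Hba-a1, Hba-a2, Hbb-bs, Hbb-bt, Mgp and Stmn1).

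Of the cytokine list, 6 genes beyond Il5 and Il13 were measured; 2 were higher in members, none was lower, and the median log2 ratio was 0.40, against -0.02 over all genes. Csf2 ranged over single cells from 0 to 112 UMIs with a median of 1 in members, and from 0 to 87 with a median of 0 in comparators. The 2 ranges overlap almost fully. Its level was 979 UPM (942 to 1017) in members and 544 UPM (523 to 566) in comparators, a ratio of 1.80 (1.70 to 1.90). After thinning, 46.86% of members (42.32 to 51.45) and 35.71% of comparators (32.71 to 38.79) held a Csf2 UMI, against 57.5% and 43.34% before it. Among cells with a Cd3 UMI and under 2 UMIs of Il1rl1 and Gata3, Csf2 was seen in 1 of 19 in the same library (5.263%, 0.133 to 26.03; median depth 5256 UMIs). It was seen in 5.778% of 1125 such cells of the pool, at a median of 4820 UMIs. T cells can express Csf2, so these shares need not be free RNA alone.

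Il4, the third type 2 cytokine, was at 72.7 UPM (62.9 to 83.5) in members and 34.1 UPM (28.9 to 39.8) in comparators, a ratio of 2.13 (1.72 to 2.65). It was seen in 89 members (18.54%) and 101 comparators (9.97%), with highest counts of 26 and 5 UMIs; thinned shares were 11.51% and 7.22%. Calca, which encodes the neuropeptide CGRP, was at 668 and 481 UPM, a ratio of 1.39 (1.30 to 1.48) that is under the size rule. Il2, a growth factor of lymphocytes, stood at 207 and 164 UPM, a ratio of 1.26 (1.13 to 1.41). Il9 and Il3, which ILC2 or other type 2 cells can make, had 0 UMIs in both classes. The floor of 3 UMIs used in the size rule stands for 1.11 UPM in members and 0.647 UPM in comparators, for either gene.

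Growth and repair factors were called in both directions: 3 of 5 measured were higher in members and 1 was lower, with a median log2 ratio of 0.60. Areg ranged from 0 to 97 UMIs per member with a median of 6, and from 0 to 115 per comparator with a median of 2. The level was 2183 UPM in members and 1423 UPM (1389 to 1458) in comparators, a ratio of 1.53 (1.48 to 1.59), and thinned shares were 77.82% (73.83 to 81.47) and 58.80% (55.65 to 61.90). With comparators weighted to the members' depth the ratio of Areg was 1.41, under the size rule. Furin, the protease that cleaves many proproteins in the secretory pathway, was at 1722 and 1135 UPM, a ratio of 1.52 (1.46 to 1.58), and 1.39 when classes were redrawn from cells thinned to 2500 UMIs. Lif, an IL-6 family cytokine, was at 211 and 117 UPM, a ratio of 1.80 (1.60 to 2.03), and 1.083 when thinned to 1500 UMIs. Csf1, the growth factor of macrophages, was lower in members, at 19.9 against 34.3 UPM, a ratio of 0.58 (0.42 to 0.80). Split by Il13 alone the ratio of Csf1 was 0.78. Its thinned shares were 4.60% of members (2.91 to 6.89) and 8.55% of comparators (6.87 to 10.47).

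Chemokines gave 4 of 5 measured genes higher in members and none lower, with a median log2 ratio of 0.78. Ccl1, the ligand of CCR8, was at 1506 UPM (1460 to 1553) in members and 787 UPM (762 to 813) in comparators, a ratio of 1.91 (1.83 to 2.00). Per cell it ranged from 0 to 84 UMIs with a median of 1 in members and from 0 to 108 with a median of 0 in comparators. Thinned shares were 53.77% and 35.20%. Among cells with a Cd3 UMI and under 2 UMIs of Il1rl1 and Gata3, 3 of 19 in the same library held Ccl1 (15.79%, 3.38 to 39.58). None of the 3 held more than 1 UMI. In such cells of the pool and the third library, Ccl1 was seen in 1 of 1125 and 0 of 1503. What part free RNA had in the Ccl1 levels was not tested. Cxcl2 and Cxcl1, attractants of neutrophils, had ratios of 1.57 (1.51 to 1.64) and 1.71 (1.49 to 1.97), the first from 1626 against 1035 UPM and the second from 146 against 85.1 UPM. Ccl5, an attractant of T cells and eosinophils that is also abundant in NK cells, was at 62.7 and 32.1 UPM, a ratio of 1.95 (1.56 to 2.45), and was seen in 12.5% of members. The ratio of Cxcl1 was 1.26 at 2500 UMIs and 1.37 in the split by Il13 alone, and that of Cxcl2 was 1.44 against comparators weighted to the members' depth. All 3 values are under the size rule, and that of Ccl5 at 2500 UMIs was 1.498.

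**Figure D2:**
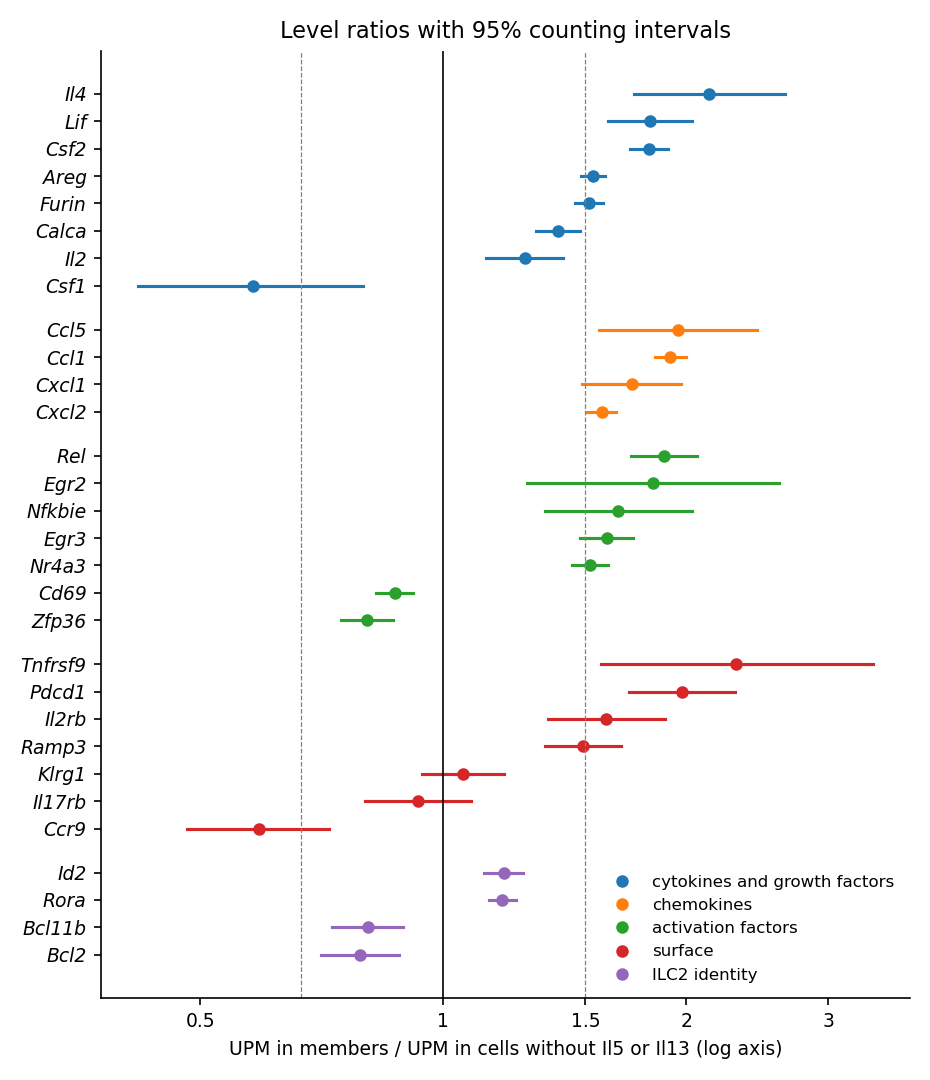
Ratio of UPM in members to UPM in gated cells without Il5 or Il13 (log axis) for named genes, coloured by group; lines are 95% counting intervals, the solid vertical line is equality and the dashed lines are 1.5-fold in each direction. The genes drawn were chosen in part for the size of their ratios. Among them, cytokine, growth factor and chemokine genes lie mostly beyond 1.5, whereas 2 of the 6 measured genes of the cytokine list were called higher. Csf1 and Ccr9 lie below 1/1.5. The identity group drawn lies between the dashed lines. It holds Rora, Id2, Bcl11b and, from the JAK-STAT list, Bcl2, and leaves out Nfil3.

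The receptors through which alarms reach ILC2 were nearly level. Il1rl1 (ST2) had a ratio of 1.02, from 919 and 905 UPM, and Gata3 a ratio of 1.10, from 945 and 863 UPM; both entered the gate and are given as a description. Of 12 other alarm and growth receptors measured, 1 was called. That gene was Il2rb, the shared beta chain of the IL-2 and IL-15 receptors, at 104 and 65.1 UPM with a ratio of 1.59 (1.35 to 1.88). Within tertiles of depth the ratio of Il2rb was 0.93 (0.50 to 1.62), 1.69 (1.21 to 2.34) and 1.38 (1.10 to 1.73), and against comparators weighted to the members' depth it was 1.39. Il17rb, the IL-25 receptor, had a ratio of 0.93 (0.80 to 1.08) and thinned shares of 21.34% and 21.36%. Il7r, the receptor of IL-7 used in the sort, had a ratio of 1.01 (0.96 to 1.05), and Il4ra one of 1.42 (1.20 to 1.68).

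None of 11 measured receptors for neuropeptides and lipid mediators was called. The nearest was Ramp3, which pairs with calcitonin family receptors, at 229 and 154 UPM, a ratio of 1.49 (1.34 to 1.66). Cysltr2 and Cysltr1, receptors for cysteinyl leukotrienes, had ratios of 1.30 (1.01 to 1.66) and 0.87 (0.77 to 0.98).

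None of 15 measured ILC2 identity and surface genes was called, against 1.64% called higher and 1.43% lower over all measured genes. Rora, a nuclear receptor that ILC2 need to develop, was at 1592 and 1345 UPM, a ratio of 1.18 (1.14 to 1.23). Id2, the inhibitor of E proteins required by all ILC, had a ratio of 1.19 (1.12 to 1.26). Bcl11b, which maintains ILC2 identity, was at 208 and 258 UPM, a ratio of 0.81 (0.73 to 0.89). Klrg1, a surface marker of mature ILC2, had a ratio of 1.06 (0.94 to 1.19) and thinned shares of 31.59% and 32.45%. Arg1, which breaks down arginine in lung ILC2, had a ratio of 1.16 (1.05 to 1.27), and Pparg one of 0.99 (0.81 to 1.21). The intervals of these 6 genes leave out a 1.5-fold difference in either direction. That of Nfil3, a transcription factor that ILC need to develop, does not: it was at 69.0 and 49.4 UPM, a ratio of 1.40 (1.15 to 1.70). Among 5 measured early and progenitor genes, Tcf7 was higher in members, at 21.4 and 12.5 UPM, a ratio of 1.71 (1.17 to 2.51) that rests on 43 members with a UMI. Split by Il5 alone, the ratio of Tcf7 was 1.36.

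Transcription factors of activation were split. Of 23 measured AP-1, EGR and NR4A genes, 3 were higher in members and 1 was lower. Nr4a3, an orphan nuclear receptor induced after receptor signals, was at 1058 and 696 UPM, a ratio of 1.52 (1.45 to 1.60), or 1.43 against comparators weighted to the members' depth. Egr3 was at 500.1 and 314 UPM, a ratio of 1.59 (1.48 to 1.72), and Egr2, a related zinc finger factor, had a ratio of 1.82 (1.27 to 2.61) from 24.7 and 13.6 UPM. Both lost the call under an alternative, Egr3 at 1.36 in the split by Il5 alone and Egr2 at 1.31 and 1.24 when thinned to 2500 and 1500 UMIs. Over the list, 15 of the 23 ratios were above 1 and the median log2 ratio was 0.23, against -0.02 over all genes. Fos, Jun and Junb, AP-1 genes that tissue digestion also induces, had ratios of 0.88 (0.84 to 0.92), 0.83 (0.78 to 0.88) and 0.98 (0.96 to 1.00). What part digestion had in the levels of this list was not tested. Ier3, the gene called lower, was at 10.3 and 25.6 UPM, but 56.3% of its comparator UMIs came from 3 cells.

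In the NF-kB and NFAT list, 2 of 16 measured genes were higher in members. Rel, which encodes the c-Rel subunit of NF-kB, was at 339 UPM (317 to 361) in members and 180 UPM (168 to 193) in comparators, a ratio of 1.88 (1.71 to 2.06). Nfkbie, an inhibitor of NF-kB, was at 67.1 and 40.7 UPM, a ratio of 1.65 (1.34 to 2.03), and 1.491 when thinned to 1500 UMIs. Nfkbia, the more abundant inhibitor, had a ratio of 1.22 (1.18 to 1.26), and Rela one of 1.36 (1.12 to 1.66).

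Among 12 measured JAK-STAT and feedback genes, 2 were higher, both BCL2-related survival genes: Bcl2a1d with a ratio of 1.65 (1.32 to 2.07) and Bcl2a1b with 1.56 (1.30 to 1.88). Bcl2a1d was at 1.43 when thinned to 1500 UMIs and Bcl2a1b at 1.30 in the split by Il13 alone. They are near-identical copies, so their reads may be split between them uncertainly. Bcl2 itself had a ratio of 0.79 (0.71 to 0.88), from 172 and 217 UPM. No gene was called among 9 of cytokine mRNA decay. Zfp36, which encodes a protein that destabilises cytokine mRNA, was at 378 and 469 UPM, a ratio of 0.81 (0.75 to 0.87), and Zfp36l1 had a ratio of 1.19 (1.15 to 1.23).

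Of 5 measured checkpoint and activation surface genes, 2 were higher in members. Pdcd1, which encodes the inhibitory receptor PD-1, was at 140 UPM (126 to 155) in members and 70.7 UPM (63.2 to 78.8) in comparators, a ratio of 1.98 (1.70 to 2.30). It was seen in 184 members and 207 comparators, and over all cells of each class it ranged from 0 to 9 and from 0 to 6 UMIs. Thinned shares were 23.64% (19.90 to 27.71) and 14.34% (12.21 to 16.69). Split by Il13 alone, the ratio of Pdcd1 was 1.29. Tnfrsf9, the costimulatory receptor 4-1BB, was at 24.3 and 10.6 UPM, a ratio of 2.31 (1.57 to 3.41). Cd69, an early activation marker, had a ratio of 0.87 (0.82 to 0.92), and Cd44 one of 1.36 (1.24 to 1.498).

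Other named genes higher in members included Ptgs2, the inducible cyclooxygenase, at 50.2 and 9.48 UPM, a ratio of 5.29 (3.74 to 7.61). It was seen in 28 members (5.83%) and 17 comparators (1.68%), 34.56% of its member UMIs came from 3 cells, and at 2500 UMIs the ratio was 2.89. Itgav, the integrin alpha V chain, was at 219 and 124 UPM, a ratio of 1.77 (1.58 to 1.99), and was seen in 55.62% and 34.35% of cells. Plaur, the urokinase receptor, had a ratio of 1.84 (1.46 to 2.31), Cyp51, an enzyme of cholesterol synthesis, one of 1.77 (1.43 to 2.19), and Lilrb4a, an inhibitory immunoglobulin-like receptor, one of 1.76 (1.52 to 2.04). Itgav was at 1.35 when cells were split by Il13 alone, and Cyp51 at 1.249 when thinned to 1500 UMIs.

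The lower genes were few at 50 UPM or more. Txnip, an inhibitor of thioredoxin and of glucose uptake, was at 68.6 UPM (59.1 to 79.2) in members and 120.5 UPM (111 to 131) in comparators, a ratio of 0.57 (0.48 to 0.67). Ccr9, a gut-homing chemokine receptor, was at 49.4 UPM (41.4 to 58.5) and 83.6 UPM (75.5 to 92.4), a ratio of 0.59 (0.48 to 0.72). Irf2bpl, a nuclear regulator, had a ratio of 0.64 (0.50 to 0.82), and 0.74 where Cd3g and Cd247 were also required at 0. Split by Il13 alone, Ccr9 was at 0.70 and Txnip stayed past the size rule. Tsc22d3, a glucocorticoid response gene, was at 76.3 and 103 UPM, a ratio of 0.74 (0.63 to 0.88), and no gene of 6 measured circadian and steroid genes was called.

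No gene was called among 16 measured for glycolysis and amino acids, 11 for the secretory pathway or 9 for egress and residency. Hk2, a hexokinase, had a ratio of 1.49 (1.22 to 1.81), and Odc1, which starts polyamine synthesis, one of 1.41 (1.34 to 1.48). Xbp1, a factor of the secretory stress response, had a ratio of 1.10 (0.85 to 1.41). In the egress list Klf2 stood at 0.74 (0.59 to 0.92) and Rgs2, a regulator of G protein signals, at 1.35 (1.30 to 1.39). Of 9 heat shock genes, Hspa1a was called, with 84.75% of its member UMIs in 3 cells.

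Levels were next set out by the number of Il5 and Il13 UMIs in the cell: 0, 1, 2 to 3, and 4 or more. Csf2 was at 544, 652, 926 and 1298 UPM in that order, and Rel at 180, 173, 377 and 457 UPM. For both, members with a single UMI lay nearer the comparators than the members with 4 or more. Ccl1 had no such order between the member groups, at 787, 1340, 1136 and 1896 UPM, and Lif stood at 117, 223, 183 and 218 UPM. Areg was at 1423, 1649, 2485 and 2447 UPM. Of the genes that entered the gate, Il1rl1 was at 905, 912, 932 and 917.5 UPM. Gata3 was at 863, 822, 880 and 1096 UPM (1034 to 1161 in the last stratum). The stratum with 4 or more UMIs was also deeper, with a median of 5637 UMIs per cell against 4704 in the stratum with 1.

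**Figure D3:**
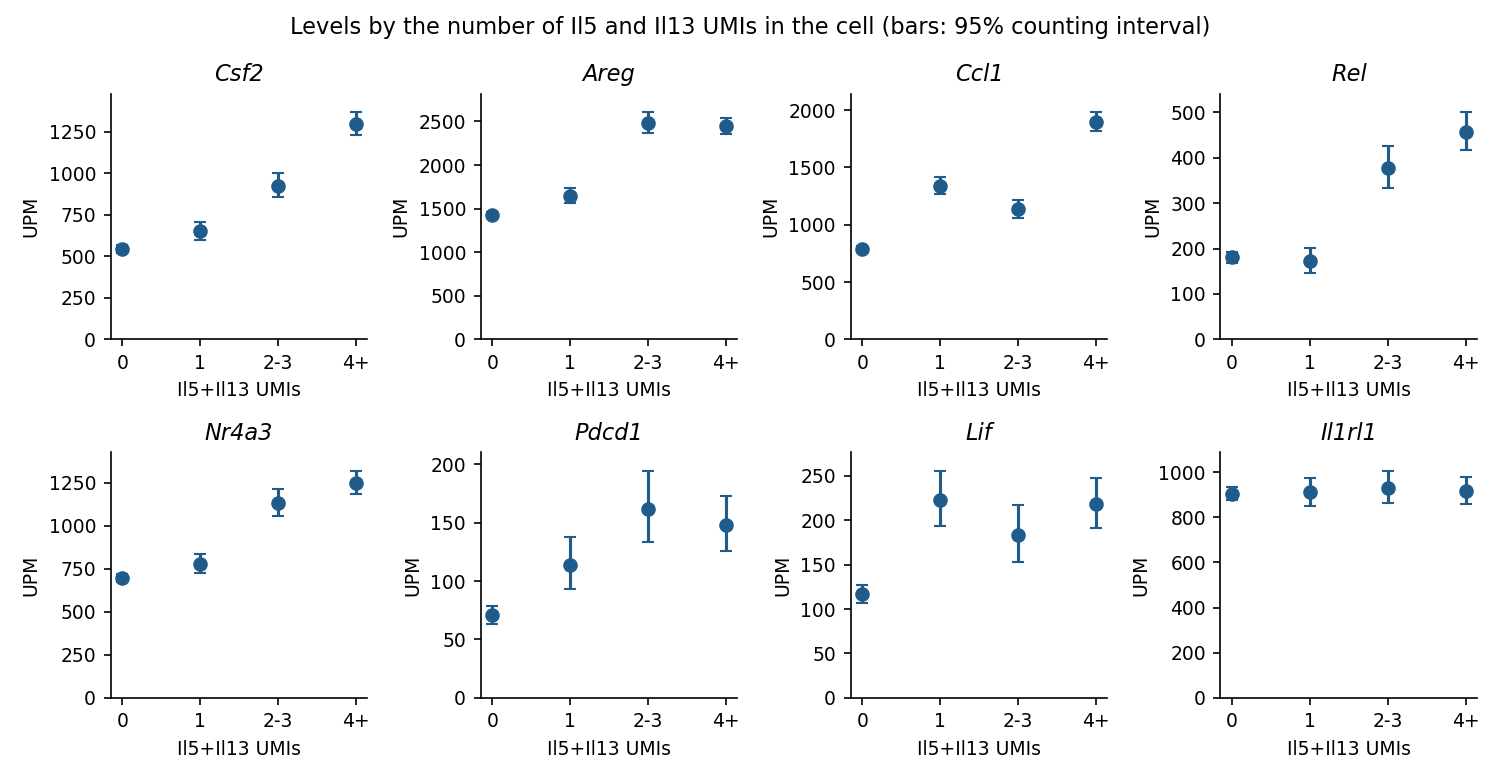
UPM of 8 genes in gated cells with 0, 1, 2 to 3, or 4 or more Il5 and Il13 UMIs (1013, 177, 123 and 180 cells); points are levels and bars are 95% counting intervals. Csf2, Rel and Nr4a3 are highest in the cells with 4 or more UMIs, whereas the 4 levels of Il1rl1 overlap in their intervals. Gata3, which also entered the gate, is not drawn and was highest in the cells with 4 or more UMIs.

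Within tertiles of depth most of these ratios stayed above 1. Csf2 in members over comparators was 2.73 (2.37 to 3.13), 1.62 (1.46 to 1.78) and 1.58 (1.46 to 1.71) from the lowest to the highest tertile. Areg was 1.64, 1.59 and 1.30 (1.24 to 1.36), so it was under 1.5-fold in the deepest cells. Ccl1 was 2.63, 1.73 and 1.78, and Pdcd1 was 2.11, 1.57 and 2.72. Il4 was 0.71 (0.29 to 1.52) in the lowest tertile, where members held few Il4 UMIs, and 2.35 and 2.22 above it. Txnip was lower in members in all 3, at 0.69 (0.47 to 1.00), 0.58 and 0.55, as was Ccr9 at 0.77 (0.43 to 1.31), 0.61 and 0.47.

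**Figure D4:**
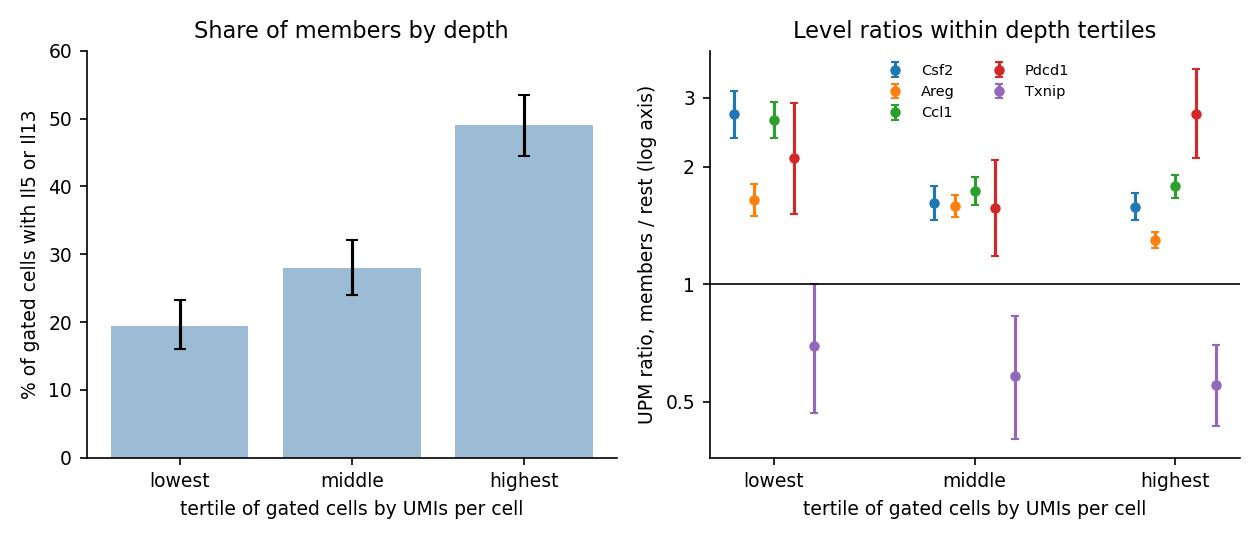
Left, percent of gated cells with an Il5 or Il13 UMI in each tertile by UMIs per cell, with 95% binomial intervals; right, UPM ratio of members to comparators within the tertiles for 5 genes on a log axis, with 95% counting intervals. The share climbs from 19.48% to 49%, while Csf2, Areg, Ccl1 and Pdcd1 stay above 1 and Txnip below 1 in each tertile.

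Members with Il5 only and with Il13 only differed in Il4, among other genes. It was at 16.9 UPM (10.3 to 26.0) in the 211 cells with Il5 only and at 129 UPM (106 to 155) in the 168 with Il13 only, 7.64-fold higher in the latter (4.72 to 12.98). Il4 was seen in 7.11% of the first and 29.17% of the second, and 32.46% of the UMIs in the second came from 3 cells. The cells with both stood at 98.4 UPM (75.6 to 126), and the comparators, at 34.1 UPM, lay above the cells with Il5 only. When all gated cells were split by Il5 alone, the Il4 ratio of Il5-positive to Il5-negative cells was 0.92.

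Over all 5273 genes measured in this pair, 365 were higher in cells with Il5 only, which is 6.92%, and 281 were lower, which is 5.33%. The classes held 1186295 and 885129 UMIs, so the sums behind single genes are small. Pdcd1 was at 169 UPM (147 to 195) with Il5 only and 90.4 UPM (71.7 to 112.5) with Il13 only, a ratio of 1.88 (1.44 to 2.46). Ptpn7, a lymphocyte phosphatase, had a ratio of 1.84 (1.27 to 2.71) and Lig1, a DNA ligase of replication, one of 2.30 (1.44 to 3.81). On the other side, Evi2a, a membrane protein, was 2.16-fold higher with Il13 only (1.54 to 3.07), and Prkch, a protein kinase C isoform, 2.01-fold (1.31 to 3.12).

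The 101 cells with both cytokines had the highest Csf2 level, 1780 UPM (1678 to 1886), against 731 UPM (683 to 781) with Il5 only and 732 UPM (677 to 791) with Il13 only. Areg had the same order, at 2789 UPM (2661 to 2921) in cells with both, 1938 UPM in cells with Il5 only and 2072 UPM in cells with Il13 only. Ccl1 did not set these cells apart, at 1728 UPM (1628 to 1833) against 1681 UPM (1597 to 1769) with Il13 only. Cells with both were the deepest, with a median of 5712 UMIs, against 5143 and 4929. Proliferation genes also sat there: Stmn1 was at 278 UPM in cells with both, 27.0 in cells with Il5 only and 2.26 in cells with Il13 only, and 63.68% of its member UMIs came from 3 cells.

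**Figure D5:**
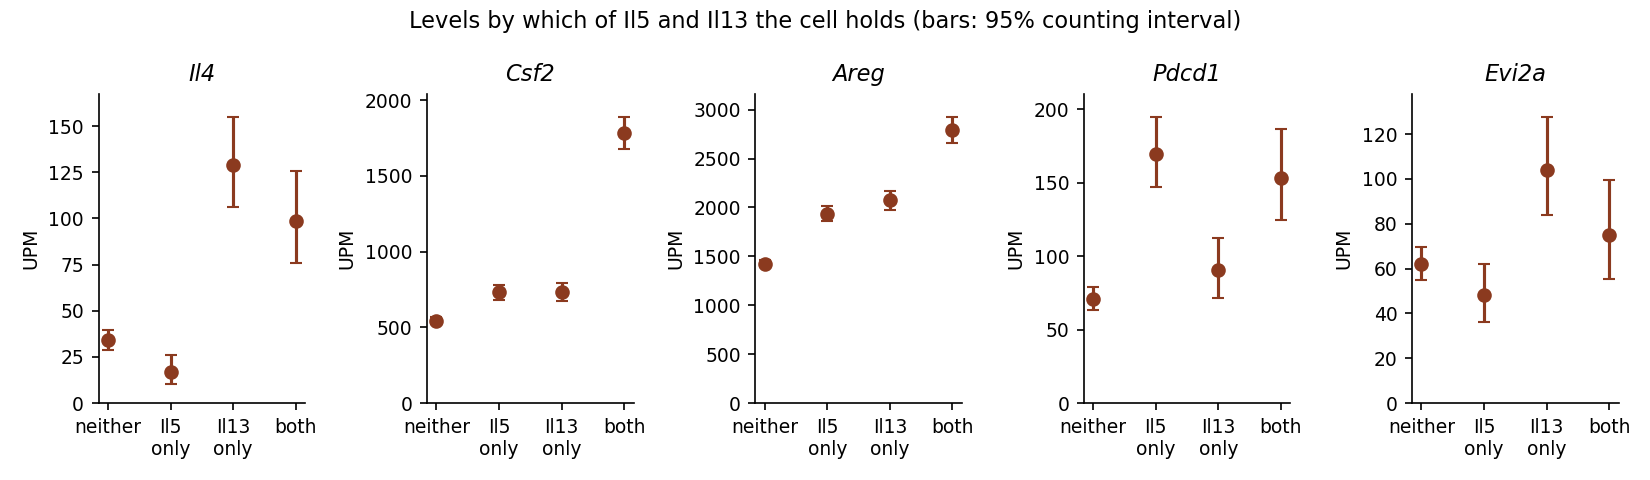
UPM of 5 genes in gated cells with neither cytokine, Il5 only, Il13 only or both (1013, 211, 168 and 101 cells); points are levels and bars are 95% counting intervals. Il4 is high where Il13 is present, Pdcd1 where Il5 is present, and Csf2 and Areg are highest in cells with both.

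Il4, Il13 and Il5 lie together on mouse chromosome 11, with Rad50, a DNA repair gene whose body holds control elements of the locus, between Il13 and Il5. On GRCm38, in the GENCODE M21 annotation, Il4 spans 53602982 to 53618669 and Il13 spans 53631324 to 53634702, both on the minus strand. Rad50 spans 53649519 to 53707319 on the minus strand, and Il5 spans 53720794 to 53725106 on the plus strand. Csf2 lies on the same chromosome at 54247271 to 54249667, on the minus strand. Of 6 measured genes of the locus list beyond Il5 and Il13, the 2 called were Il4 and Csf2. The neighbours that are not cytokines were not called: Rad50 had a ratio of 1.07 (0.90 to 1.27), Irf1, an interferon regulatory factor, 1.00 (0.80 to 1.248), and Uqcrq, a subunit of the respiratory chain, 1.28 (1.14 to 1.43).

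The 250 bases before the start of Il5, Il13 and Il4 are shown because these 3 genes divide the members, and Il4 was higher in cells with Il13 only than in cells with Il5 only. Each is on its gene's strand, 5′ to 3′, from RefSeq on GRCm38.p6, and ends just before the transcript start. Il5 is chr11:53720544-53720793 (plus), Il13 is chr11:53634703-53634952 (minus) and Il4 is chr11:53618666-53618915 (minus), the one of 2 RefSeq starts nearest to the GENCODE gene start. Capitals mark exact matches on either strand to 3 motifs: AP-1 as TGANTCA, NFAT as GGAAAA and GATA as AGATAA.
Il5: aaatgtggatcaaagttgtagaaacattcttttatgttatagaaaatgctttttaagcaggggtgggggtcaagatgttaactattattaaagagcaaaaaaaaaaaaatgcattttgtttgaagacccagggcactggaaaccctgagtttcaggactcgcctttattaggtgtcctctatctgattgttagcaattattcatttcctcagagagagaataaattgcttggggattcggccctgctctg
Il13: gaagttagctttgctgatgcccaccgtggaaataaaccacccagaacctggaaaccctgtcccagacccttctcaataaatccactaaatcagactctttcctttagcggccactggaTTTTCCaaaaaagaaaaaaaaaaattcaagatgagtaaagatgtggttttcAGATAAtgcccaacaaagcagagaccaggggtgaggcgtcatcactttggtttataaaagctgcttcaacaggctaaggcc
Il4: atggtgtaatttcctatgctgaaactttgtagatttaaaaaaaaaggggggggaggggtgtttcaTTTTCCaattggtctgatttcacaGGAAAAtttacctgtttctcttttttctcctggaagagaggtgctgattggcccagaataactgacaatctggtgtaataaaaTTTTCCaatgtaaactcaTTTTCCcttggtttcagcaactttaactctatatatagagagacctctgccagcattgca
The Il4 stretch holds 4 NFAT matches, the Il13 stretch holds 1 NFAT and 1 GATA match, and the Il5 stretch holds no match to these exact letters. Other spellings of the 3 motifs were not searched, so the Il5 stretch is not shown to lack them. No 2 matches overlap. Of 32851 promoter stretches of the same length, 6.749% hold the AP-1 letters, 20.43% the NFAT letters and 9.988% the GATA letters. A match is a description of letters and not a binding site.

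Markers of other cell types were summed over each list in both classes. The 9 T cell genes outside the rule summed to 1091 UPM in members and 1148 in comparators, with Cd4 and Cd8a at 0 in members. Most cells of both classes held 2 or more UMIs of these genes, 418 members (87.08%) and 867 comparators (85.59%). Trac, the T cell receptor alpha constant gene, was at 22.5 and 13.8 UPM, a ratio of 1.63 (1.13 to 2.35). Trbc2 was at 430 and 490 UPM, a ratio of 0.88 (0.82 to 0.94), and was seen in 75.83% of members and 74.33% of comparators. Cd3g, a CD3 chain that the rule did not use, was seen in 109 members (22.71%), at a ratio of 0.98 (0.85 to 1.14). With Cd3g and Cd247 also required at 0, 363 members remained of 1162 gated cells, and 119 genes were higher and 104 lower. The ratio was then 1.796 for Csf2, 1.65 for Ccl1, 1.54 for Il4, 1.44 for Areg, 1.499 for Furin and 1.45 for Egr3, so that Areg, Furin and Egr3 were no longer past 1.5-fold. Mast cell and basophil genes, which matter beside Il4, summed to 7.01 and 9.05 UPM, with 6 of 8 at 0 in members. Genes of ILC1 and NK cells summed to 63.1 and 34.3 UPM with 6 of 8 at 0, and Ccl5 made up 62.7 UPM of the member sum. Sums for ILC3 were 8.85 and 3.66 UPM, for myeloid cells 1.84 and 5.17, for B cells 5.53 and 3.02, and for eosinophils 1.11 and 0. What part any of these had in the ratios above was not tested.

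Stromal and erythroid sums differed through single cells. Stroma, endothelium and epithelium summed to 85.9 UPM in members, or 52.6 without the highest cell, against 48.3 in comparators. Globin and platelet genes summed to 4514 UPM in members, of which 1 cell gave 11990 UMIs, and to 92.8 UPM without it, against 82.1 in comparators. With the 2 members of over 50 erythroid or stromal UMIs taken out, Hbb-bs and Hba-a2 each had a ratio of 0.776. Of 5 measured cycling genes, Stmn1 and Top2a were called higher, with 63.68% and 70.45% of their member UMIs in 3 cells, and without the 14 gated cells that held 2 or more UMIs of Mki67 and Top2a, 9 of them members, the ratio of Top2a was 0.949.

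Csf1 and Dach2, a transcription cofactor gene, were both at lower levels in members, and together they mark 511 gated cells with a UMI of either. Of these, 150 were members (29.35%, 25.44 to 33.51), against 330 of 982 gated cells with neither (33.60%, 30.65 to 36.66). The median depth was 4697 and 4534 UMIs, and after thinning the shares were 22.75% and 26.04%. The intervals of the 2 shares overlap. Dach2 had a ratio of 0.81 (0.67 to 0.98), under the size rule.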

How the data were processed

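The deposited matrices hold counts, one whole number of UMIs for each of 32285 genes in each barcode, not normalised, per the file headers. The authors used Cell Ranger 6.0.1 and the mm10 build, per the submitters' processing notes; annotation and cell calling: not given in the sources used here. Depth was 8133323 to 9730760 UMIs a library. A barcode passed with 500 or more genes and no more than 10% of its UMIs from mitochondrial genes. The gate and membership follow the counts given with the results. The members, gene lists and alternatives were chosen with earlier results of these data known, and 3 alternatives were added after seeing the data.

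Sums per class were divided by the class total (numpy 2.4.6, scipy 1.17.1). Thinning drew UMIs without replacement to 2500 or 1500 per cell with a fixed seed; 2 members and 30 comparators were too shallow for 2500. Scrublet ran in scanpy 1.11.5 at the library level, and no ambient RNA removal was run. Scaling factors of edgeR 4.0.16 were tried as alternatives; no count model was fitted. The size rule was run on simulated class sums with known fold changes and Poisson counting error. That simulation held no spread between cells, so it cannot show how the rule behaves where few cells hold most UMIs of a gene. Named genes were the rule's genes, Csf2, Areg, per direction up to 12 called genes of at least 50 UPM with the largest ratios, leaving out predicted genes and genes with 50% or more of their UMIs in 3 cells, and up to 4 measured genes per list with the largest absolute log2 ratio; other genes named were chosen after their values were seen. There were 19 pathway and 10 marker lists. Effects of tissue digestion cannot be told apart from the state of the cells in the lung.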

Additional observations from a re-analysis of the deposited data

Results flagged for a closer look

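Il5 or Il13 was also seen in cells that the comparison leaves out, in 4 groups of cells above a floor of 3 cells. Outside the gate of the IL-18R- ST2+ library, 18.6% of 129 cells held a UMI of either.

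In the IL-18R+ pool, 17.81% of the 146 gated cells did (26 cells, 11.98 to 24.99), at a median of 7862 UMIs. These cells held 6 Il5 UMIs and 62 Il13 UMIs, a balance unlike that of the members. Of the 26, 25 had Gata3, 23 had Il18r1 and 6 had Il1rl1. Outside the gate of the pool, the share was 0.859% of 1513 cells.

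Of 49 gated cells in the sort labelled IL-18R- CD103- GFP-, 10.2% held Il5 or Il13 (5 cells, 3.40 to 22.23), with 3 UMIs of each gene. Outside its gate the share was 0.164% of 1834 cells (3 cells), which equals that floor. The origin of these UMIs was not tested.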

How the results depend on the processing

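The share of members was 25.68% of cells that met the gate again after thinning to 2500 UMIs, 19.76% at 1500 and 20.29% where at least 2 Il5 and Il13 UMIs were required. The number of genes higher in members was 205 and 548 under these 2 thinnings, 155 with at least 2 UMIs, 179 and 42 with level minimums of 10 and 50 UPM, and 18 at 2-fold. The number lower was 300, 738, 158, 277, 4 and 3 in the same order, and 159 when cells were split by Il13 alone. Thinning also redraws the gate and the classes, and the cause of the larger numbers was not tested. The ratio of Il13 between Il5 classes was 4.69 and 2.14 in the lowest and highest depth tertiles, and that of Il5 between Il13 classes was 3.08 and 1.76 in the middle and highest.

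Ratios crossed 1 for Hbb-bt, Hbb-bs, Hba-a2 and Hba-a1 at 2500 UMIs (0.0374, 0.0141, 0.0295 and 0.362) and, with Dcn (0.205), in the split by Il13 (0.00715, 0.00390, 0.0171 and 0.191). Hbb-bs and Hba-a2 were at 0.540 and 0.899 with at least 2 UMIs and both at 0.776 without barcodes of over 50 erythroid or stromal UMIs. These genes' UMIs sit largely in 1 cell. Top2a was at 0.949 without cycling barcodes, and Il4 at 0.923 in the split by Il5. List medians crossed 0 for early genes (-0.029) and cycling genes (-0.0077) at 1500 UMIs, for neuropeptide and lipid receptors (-0.0069 with at least 2 UMIs, -0.044 in the split by Il13), for mRNA decay (-0.014 in that split) and for cycling genes without cycling barcodes (-0.018). The cause was not tested. Of the named genes' ratios under all alternatives, 41 lay on the other side of 1 from the main value, 15 of them of called genes (those above) and 26 of genes not called. Of the 30 named called genes without 50% of their UMIs in 3 cells, 22 fell short of 1.5-fold under at least 1 of 16 alternatives. The other 8 stayed past it under all 16 (Ptgs2, Ccl1, Rel, Plaur, Csf2, Lilrb4a, Tnfrsf9 and Txnip). These 16 leave out the depth tertiles and the level minimums. In the lowest tertile Txnip was at 0.69, short of 1.5-fold, and Tnfrsf9, at 24.3 UPM in members, was under the 50 UPM minimum. Scaling by TMM or the median of ratios shifted all log2 ratios by 0.02 and 0.03.

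Over the alternatives Csf2 ranged from 1.58 to 2.40, Areg from 1.41 to 1.73, Furin from 1.31 to 1.63, Ccl1 from 1.53 to 2.02, Rel from 1.66 to 2.36, Pdcd1 from 1.29 to 2.27, Lif from 1.08 to 1.89, Txnip from 0.51 to 0.63 and Csf1 from 0.48 to 0.78. No paired analysis was possible because each group is a single library without a replicate number. Depth limits the comparison: a cell without an Il5 or Il13 UMI may hold the transcript, and genes under 20 UPM were not compared.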
